A study of Mus musculus with 12 samples.

Results

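Genes of DNA damage repair and checkpoint signalling were compared between the fallopian tubes of wildtype and mogp-TAg transgenic mice. Members were defined by gene symbol: the numbered Rad, Xrcc, Ercc, Msh and Mlh symbols, the lettered Fanc symbols, and Brca1, Brca2, Chek1, Chek2, Parp1, Parp2, Nbn, Blm, Exo1, Palb2, Brip1, Atm, Atr and Atrip, leaving out the cohesin subunit Rad21. The platform annotation held 54 such symbols. Of these, 45 had values and are described here, out of 11229 genes with values in all, and Ercc2, Fancb, Fancd2os, Fancm, Msh4, Nbn, Palb2, Rad54l2 and Xrcc5 had no value on any array.

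The series holds 6 female mice of C57BL6 background: 3 wildtype and 3 mogp-TAg, with 1 mouse of each genotype aged 7 weeks, 1 aged 8 weeks and 1 aged 9 weeks. No treatment is named in the labels, and both genotypes were housed alike. In mogp-TAg mice the promoter of Ovgp1, the oviductal glycoprotein gene of secretory tubal epithelium, drives SV40 large T antigen, a viral protein that binds p53 and the RB family. Each mouse was measured on 2 one-colour Illumina arrays that the labels call experimental repeats, and the mean of both arrays is the value of that mouse. Total RNA of the whole dissected tube was used, so fewer cells of a type and less RNA per cell cannot be told apart in any value below.

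DNA repair pathways differ in the lesion they act on. Sensor complexes and the ATM and ATR kinases detect breaks and stalled replication forks and, through Chek1 and Chek2, hold the cell cycle. Homologous recombination copies the sister DNA molecule and therefore works in S and G2 phase, whereas end joining and nucleotide excision repair also serve cells that do not divide. The Fanconi anaemia pathway unhooks crosslinked strands, mismatch repair corrects replication errors, and Xrcc1 with the Parp enzymes mends single-strand breaks. In the human fallopian tube, inherited mutations of BRCA1 and BRCA2 raise the risk of serous carcinoma.

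Promoter windows of RefSeq (build GRCm38.p6, 250 bases before to 50 bases after a gene's start) were available for 37 of the 45 members. They were searched on both strands for the E2F-like letters TTTCCCGC, TTTGGCGC, TTTCGCGC and TTTGCCGC, because large T antigen binds the RB family, which holds E2F factors in check. Printed below are the 4 members higher in transgenic tubes with the largest differences among those with a match, and Rad54l as a strongly different member with none. Each line runs 5′ to 3′ along the gene, and capitals mark the match, which reads GCGGGAAA where it lies on the opposite strand.
Brca2, chr5:150522371-150522670, plus strand: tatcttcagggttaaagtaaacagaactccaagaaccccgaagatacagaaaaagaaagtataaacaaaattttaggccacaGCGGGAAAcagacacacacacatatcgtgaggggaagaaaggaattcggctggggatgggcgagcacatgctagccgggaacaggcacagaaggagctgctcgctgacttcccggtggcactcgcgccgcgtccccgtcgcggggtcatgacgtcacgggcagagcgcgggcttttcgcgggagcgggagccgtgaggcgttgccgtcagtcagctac
Msh6, chr17:87974800-87975099, plus strand: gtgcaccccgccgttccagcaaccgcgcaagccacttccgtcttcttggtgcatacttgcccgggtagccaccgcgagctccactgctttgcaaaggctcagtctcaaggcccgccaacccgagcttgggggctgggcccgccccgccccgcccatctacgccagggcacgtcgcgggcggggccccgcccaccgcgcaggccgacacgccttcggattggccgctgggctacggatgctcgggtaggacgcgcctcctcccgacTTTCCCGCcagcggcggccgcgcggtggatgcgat
Rad51c, chr11:87404905-87405204, minus strand: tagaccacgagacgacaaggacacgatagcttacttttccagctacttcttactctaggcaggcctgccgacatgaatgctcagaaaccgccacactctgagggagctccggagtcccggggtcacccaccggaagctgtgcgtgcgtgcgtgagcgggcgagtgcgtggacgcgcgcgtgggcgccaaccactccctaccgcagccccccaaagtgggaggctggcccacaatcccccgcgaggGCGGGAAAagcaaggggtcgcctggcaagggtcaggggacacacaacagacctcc
Xrcc6, chr15:82016119-82016418, plus strand: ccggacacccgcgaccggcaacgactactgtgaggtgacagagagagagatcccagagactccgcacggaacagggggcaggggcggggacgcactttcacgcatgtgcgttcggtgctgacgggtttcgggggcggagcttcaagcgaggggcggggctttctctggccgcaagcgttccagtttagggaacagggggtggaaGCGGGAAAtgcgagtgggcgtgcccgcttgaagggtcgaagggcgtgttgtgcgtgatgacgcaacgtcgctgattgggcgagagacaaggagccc
Rad54l, chr4:116123641-116123940, minus strand: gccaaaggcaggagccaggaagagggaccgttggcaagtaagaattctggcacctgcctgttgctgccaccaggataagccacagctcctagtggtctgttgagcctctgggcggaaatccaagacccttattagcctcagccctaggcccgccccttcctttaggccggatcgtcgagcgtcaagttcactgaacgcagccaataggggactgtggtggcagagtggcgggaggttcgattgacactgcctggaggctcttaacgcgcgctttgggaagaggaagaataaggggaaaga
The match began 168 bases before the annotated start in Brca2, 46 before in Xrcc6, 5 before in Rad51c and 15 after in Msh6. A second annotated start of Rad51c had TTTCGCGC 11 bases after it. A match was found in 8 of the 37 members (21.6%), against 4.24% of 9067 genes with values and 2.60% of all 27025 genes of the promoter table. Among members higher in transgenic tubes 5 of 17 had one, the fifth being Msh3, and among the others 3 of 20 had one, namely Chek2, Fancg and Msh5. CCAAT, a box bound by NF-Y, was present in 56.8% of the members, 43.1% of genes with values and 41.1% of all genes of the table. TTTGAA, the letters of the cell cycle homology region, was present in 5.41%, 14.7% and 20.2%. These letters describe the windows only and show no binding.

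Many repair and checkpoint genes were higher in the transgenic tubes, and among the 45 members the largest differences were those of homologous recombination. Outside the symbol rule, Clspn (2.64) and Lig1 (2.42) lay above every member but Rad54b (3.06). By limma at a Benjamini-Hochberg adjusted p below 0.05 (two-sided, n = 3 mice per genotype, adjusted over all 16664 probes), 22 of the 45 members were higher (48.9%), against 10.4% of all genes. The number lower was 2, Mlh3 and, by the brightest of 3 probes that disagree, Chek2, where 12.5% of all genes were lower. The other 21 members did not pass, which does not show that they were equal. The median log2 difference, transgenic minus wildtype, was 0.34 over the members and -0.02 over all genes. All 3 transgenic mice lay above all 3 wildtype mice for 27 members (60.0%, against 18.9% of all genes) and below them for 3 (22.3% of all genes). Of the 22 higher members, 7 differed by more than 1 on the log2 scale and 15 by less. In 10 of the 22, the wildtype mean lay near the array floor, here a signal under 124, the 25th percentile of all normalised values. These were Brca1, Chek1, Ercc6l, Fancd2, Fanci, Msh3, Rad18, Rad51ap1, Rad51c and Xrcc3. No background was subtracted, so a difference is understated there.

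A total of 24 members was thus called in either direction, where 22.9% of all genes were, and all 24 had the same sign in the first and in the second repeat array taken alone. Both arrays come from the same mice and their mean gave the calls, so this agreement is not a separate test. The count of higher members rested in part on single mice. It was 14 without the transgenic mouse of 8 weeks, 16 without the wildtype mouse of 7 or of 9 weeks, and between 20 and 24 without any one of the others. The count over all probes moved too, from 1748 higher to 873 without the transgenic mouse of 8 weeks. The members called under every one of 15 alternative settings that tested them numbered 13: Rad54b, Rad54l, Brip1, Blm, Rad51ap1, Brca2, Fancd2, Fanci, Chek1, Rad50, Xrcc6, Msh6 and Ercc6l.

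**Figure D1:**
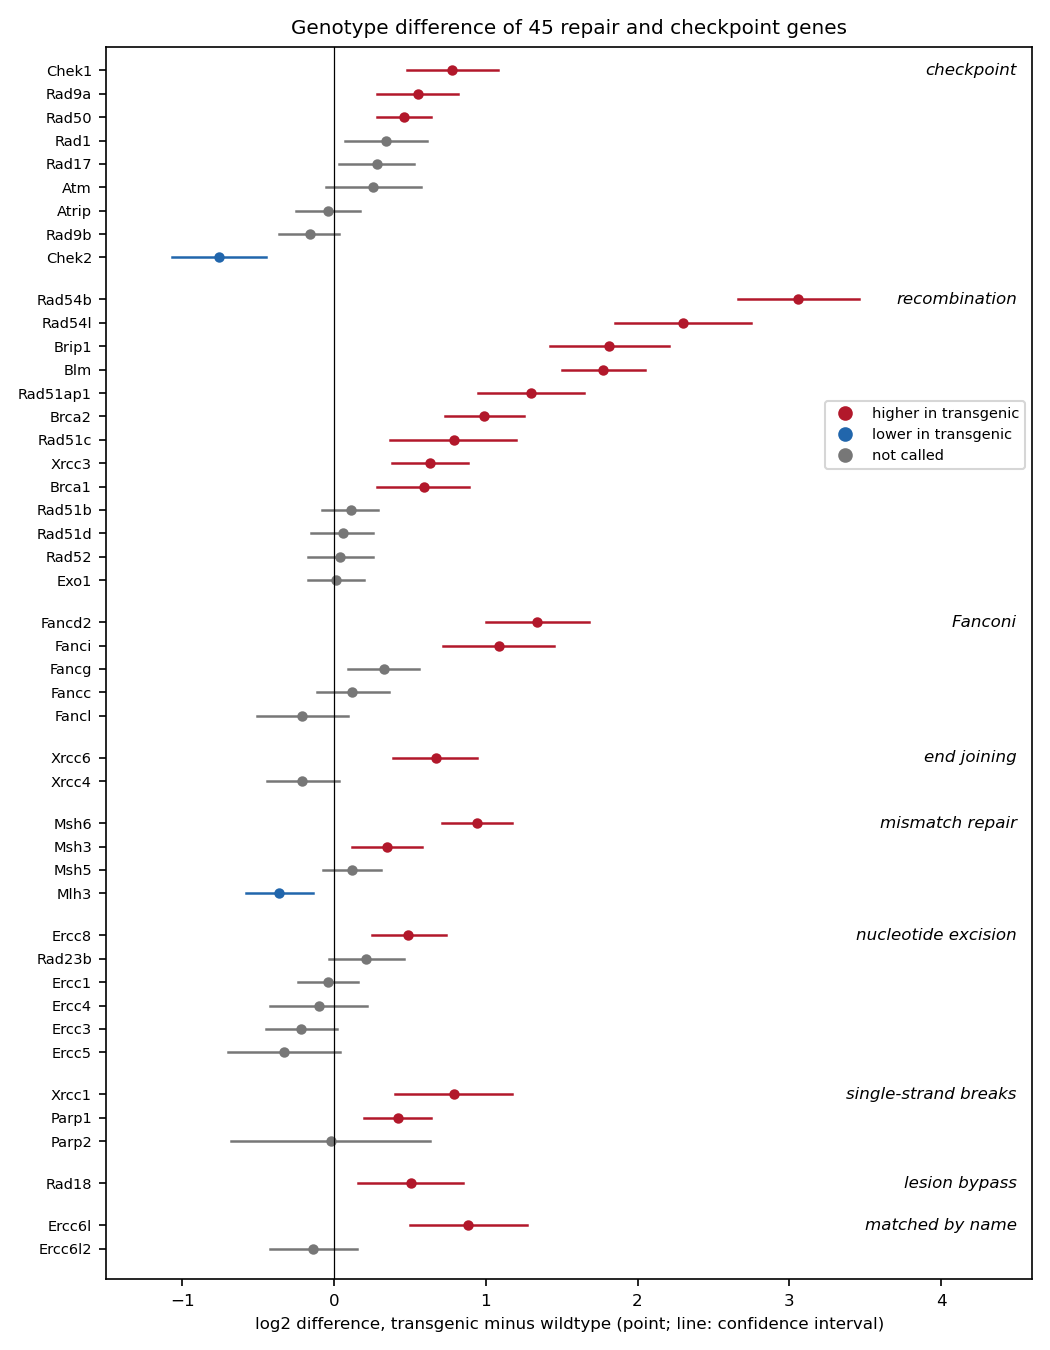
Log2 difference between transgenic and wildtype tubes for each of the 45 members, ordered by role and, within a role, by size. Points are the difference of means over 3 mice per genotype and lines its 95% interval from limma, coloured by call. Rad54b stands at 3.06 and Chek2 at -0.76.

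Other features of the tissue differed with genotype at the same time. For the counts in this paragraph, 10.4% of all genes were higher and 12.5% lower. All 17 genes of a list of cell division genes were higher, with a median of 2.30, and the list's mean log2 signal was 7.60 to 8.10 in wildtype and 9.91 to 10.46 in transgenic mice. All 10 ciliated cell markers were lower (list mean 9.42 to 9.70 against 7.97 to 8.31), as were 8 of 10 smooth muscle (10.80 to 10.94 against 9.68 to 9.93), 7 of 7 mesothelial (8.84 to 9.31 against 7.72 to 7.92), 5 of 10 endothelial (8.60 to 8.72 against 8.02 to 8.41) and 3 of 6 adipocyte markers (8.29 to 8.71 against 7.10 to 7.84). Of 9 secretory cell markers 3 were higher and 1 lower (10.27 to 10.45 against 10.70 to 10.80). Of 8 macrophage and myeloid markers 4 were higher and 2 lower (8.99 to 9.17 against 9.27 to 9.78). None of 8 lymphocyte markers passed in limma (6.72 to 6.78 against 6.81 to 6.92, near the floor, 2 at an unadjusted p below 0.05). None of 7 ovary markers did either (6.74 to 7.21 against 6.78 to 8.03, the highest in the transgenic mouse of 7 weeks, 1 at an unadjusted p below 0.05). The part of these shifts in the values of the repair genes was not tested. Of the tissue's defining markers, Ovgp1 was bright in every mouse (signals 18541 to 23114), Pax8 lay between 482 and 816, and the ciliary factor Foxj1 between 128 and 234.

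Signals below are normalised fluorescence on a linear scale and are given for the mice of 7, 8 and 9 weeks in that order. Differences are on the log2 scale with the standard error of the limma fit.

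Homologous recombination held 9 higher members of 13 (69.2%, against 10.4% of all genes), with a median difference of 0.79. All 13 differences were above 0, where 5341 of all 11229 genes had one above 0. Those of Exo1 (0.01) and Rad51d (0.06) were small and changed sign under some alternative settings. The largest difference among all members was that of Rad54b, a DNA translocase of strand exchange. Its signals were 129, 170 and 153 in wildtype and 996, 1518 and 1294 in transgenic mice. Even the lowest transgenic value lay far above the highest wildtype value, a difference of 3.06 (SE 0.17, 8.35-fold, adjusted p = 2.04e-04). Its relative Rad54l, the mouse Rad54, measured 123, 166 and 140 in wildtype and 530, 859 and 746 in transgenic mice (2.30, SE 0.19, 4.93-fold, adjusted p = 4.60e-04). Both translocase genes had their lowest value in the mouse of 7 weeks and their highest in the mouse of 8 weeks, in each genotype.

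Helicases and strand-invasion partners of the same pathway followed. Brip1, a helicase that binds Brca1, measured 139, 147 and 141 in wildtype and 378, 581 and 571 in transgenic mice (1.81, SE 0.17, adjusted p = 5.84e-04). Blm, the RecQ helicase that dissolves joined recombination intermediates, measured 206, 198 and 212 against 613, 818 and 693 (1.77, SE 0.12, adjusted p = 3.10e-04). The wildtype values of both genes were tight, and the genotypes were separated by more than the whole spread within either. Rad51ap1, which helps to form the joint with the template, measured 96.1, 123 and 111 in wildtype and 221, 294 and 302 in transgenic mice (1.30, SE 0.15, adjusted p = 0.00129). Its wildtype values lay near the array floor.

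Brca2, a mediator of strand exchange, measured 132, 142 and 155 in wildtype and 261, 323 and 270 in transgenic mice (0.99, SE 0.11, 1.99-fold, adjusted p = 0.00125), and its second probe, near the floor in wildtype mice, gave 0.55 (SE 0.09, adjusted p = 0.00502). Brca1, which acts in end resection and with Brca2 and lay near the floor in wildtype mice, measured 88.3, 95.1 and 93.2 against 116, 138 and 165 (0.59, SE 0.13, adjusted p = 0.0197). The 2 genes thus differed in how firmly they were called: the Brca1 difference did not pass without the wildtype mouse of 7 weeks (adjusted p = 0.0647) or 9 weeks (0.0584) or the transgenic mouse of 8 weeks (0.0754), nor in the second repeat arrays alone (0.35, adjusted p = 0.159).

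Rad51b, Rad51c, Rad51d and Xrcc3, a family of related recombination proteins, were called unequally. Rad51c measured 118, 121 and 123 in wildtype and 157, 218 and 263 in transgenic mice (0.79, SE 0.18, adjusted p = 0.0193). Xrcc3 measured 108, 93.1 and 95.0 against 137, 155 and 167 (0.63, SE 0.11, adjusted p = 0.00682). Rad51c did not pass without the wildtype mouse of 7 weeks (adjusted p = 0.0582) or 9 weeks (0.0570) or the transgenic mouse of 8 weeks (0.0810), and Xrcc3 did not pass in the second repeat arrays alone (0.0766). The relatives Rad51b (0.11, 95% interval -0.08 to 0.29) and Rad51d (0.06, interval -0.15 to 0.26) did not pass, and Rad51b lay near the floor in both genotypes. Rad52, an annealing protein, gave 0.04 (interval -0.17 to 0.26). The probe of the resection nuclease Exo1 stayed near the floor in every mouse, between 97.6 and 105, and gave 0.01 (interval -0.17 to 0.20), which turned to -0.04 when arrays were scaled to a common median.

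**Figure D2:**
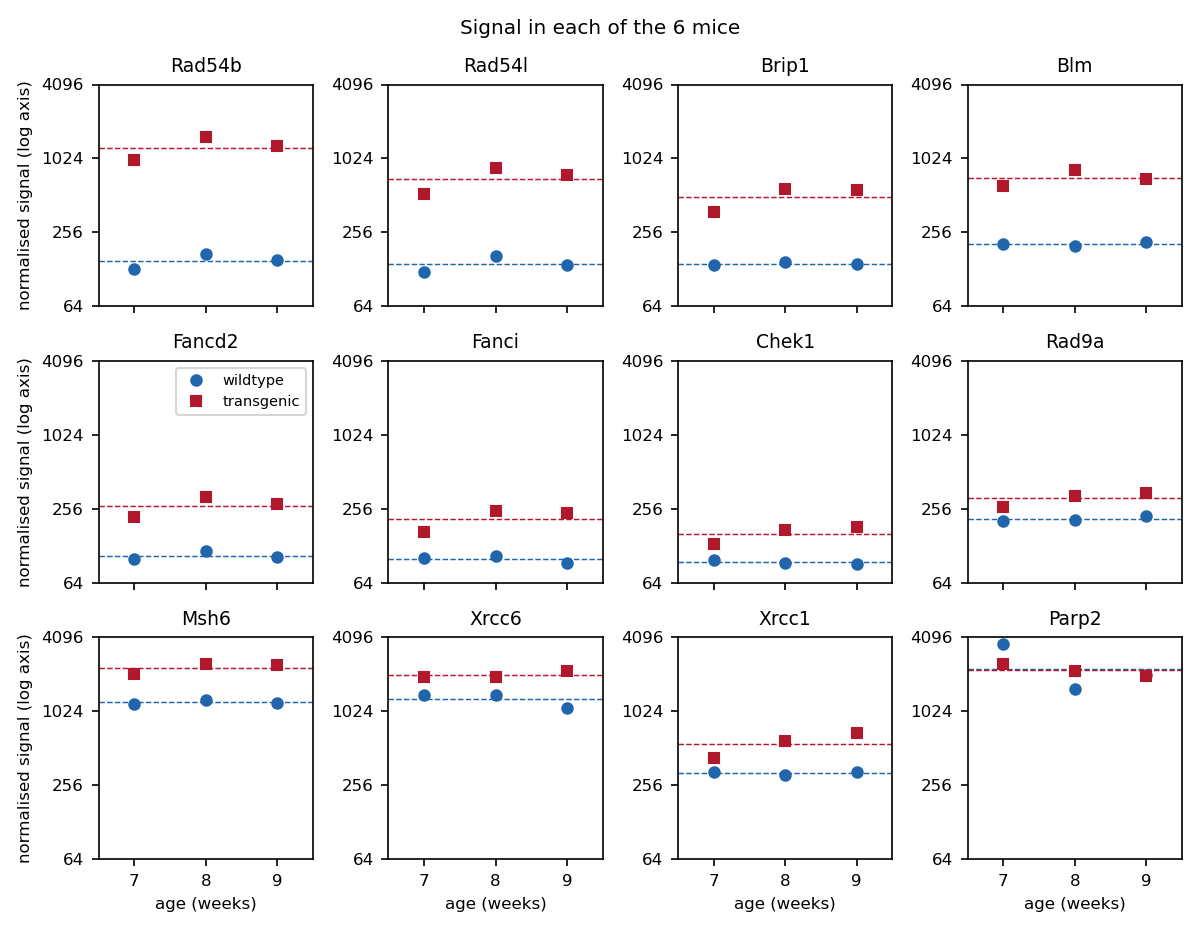
Normalised signal (log axis) of 12 members in each of the 6 mice against age in weeks, with the mean of each genotype as a dashed line. Transgenic mice lie above wildtype mice in every panel but Parp2, where the wildtype mouse of 7 weeks is highest at 3596.

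In the Fanconi anaemia pathway 2 of 5 members were higher (median 0.33), where 10.4% of all genes were. The 2 were the partners of the clamp that is ubiquitinated at a crosslink. Fancd2 measured 99.9, 117 and 103 in wildtype and 218, 318 and 279 in transgenic mice (1.34, SE 0.15, 2.53-fold, adjusted p = 0.00109). Fanci measured 101, 105 and 92.9 against 165, 244 and 235 (1.09, SE 0.16, 2.13-fold, adjusted p = 0.00319). Neither overlapped between the genotypes, and both were near the array floor in wildtype mice. Members of the core complex that ubiquitinates this pair did not pass: Fancg gave 0.33 (interval 0.09 to 0.56, adjusted p = 0.0595), Fancc 0.12 (interval -0.11 to 0.36), and Fancl, the ubiquitin ligase, -0.21 (interval -0.51 to 0.09). The other Fancl probe gave 0.11. Fancg passed without the transgenic mouse of 7 weeks (0.42, adjusted p = 0.0207) and with normexp background correction (0.46, adjusted p = 0.0401).

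Of 9 genes of damage sensing and checkpoint signalling, 3 were higher and 1 lower (median 0.28), where 10.4% of all genes were higher and 12.5% lower. Chek1, the effector kinase of ATR, measured 97.6, 92.0 and 91.2 in wildtype and 132, 173 and 181 in transgenic mice (0.78, SE 0.13, adjusted p = 0.00589), and its other probe gave 1.08 (SE 0.12, adjusted p = 0.00106). Rad9a, a subunit of the checkpoint clamp, measured 205, 208 and 224 against 264, 328 and 345 (0.55, SE 0.12, adjusted p = 0.0159). Both were separate between the genotypes, and the Rad9a call was lost without the transgenic mouse of 8 weeks (adjusted p = 0.0740) or the wildtype mouse of 7 weeks (0.0550). Rad50, of the complex that binds broken ends, measured 500, 521 and 546 in wildtype and 706, 730 and 721 in transgenic mice (0.46, SE 0.08, adjusted p = 0.00650). The further probes of these last genes were dimmer and did not pass: Rad50 had 1, near the floor in both genotypes (0.10, adjusted p = 0.515), and Rad9a had 2 (0.25 and 0.14, adjusted p = 0.0829 and 0.262). The mean over all probes of a gene was 0.28 for Rad50 and 0.32 for Rad9a, and both still passed.

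The other sensors did not pass. Rad1, a further clamp subunit, had the lowest p of them at 0.34 (interval 0.07 to 0.61, adjusted p = 0.0760), and Rad17, which loads the clamp, gave 0.28 (interval 0.03 to 0.53). Atm, the kinase activated by double-strand breaks, gave 0.26 (interval -0.05 to 0.57), with signals of 202, 209 and 232 in wildtype and 212, 294 and 268 in transgenic mice. Without the transgenic mouse of 7 weeks, Atm (0.39, adjusted p = 0.0413) and Rad17 (0.38, adjusted p = 0.0259) passed. Atrip, the partner of ATR, gave -0.04 (interval -0.25 to 0.17) and Rad9b, a relative of Rad9a near the floor in both genotypes, -0.16 (interval -0.36 to 0.03).

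Chek2, the effector kinase of ATM, was the member with the lowest difference, and its 3 probes did not move together. The brightest, ILMN_2633492, measured 441, 437 and 519 in wildtype and 236, 272 and 322 in transgenic mice (-0.76, SE 0.13, adjusted p = 0.00765). A second, ILMN_2856599, measured 205, 177 and 255 against 152, 148 and 167 and did not pass (-0.44, SE 0.14, adjusted p = 0.0640). The third, ILMN_1247062, was higher in transgenic mice, at 106, 107 and 104 against 128, 144 and 164 (0.46, SE 0.11, adjusted p = 0.0218), with wildtype values near the array floor. The genotypes were separate for each probe, downward for 2 and upward for 1. The mean over the 3 probes did not pass (-0.25, adjusted p = 0.156), and in the first repeat arrays alone the brightest probe did not pass either (-0.53, adjusted p = 0.0989). The annotation assigns the 3 probes to 1 transcript record, and no direction for the gene as a whole is drawn here. Chek2 was the only member of 22 with several probes that had probes called both ways. Probes also differed in sign, with none called, in Ercc3 (-0.22 and 0.08), Ercc6l2 (-0.14 and 0.02) and Fancl (-0.21 and 0.11). The same held for Parp2 (-0.02 and 0.12), Rad17 (0.28 and -0.02) and Rad51d (-0.12 to 0.08 over 4 probes).

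**Figure D3:**
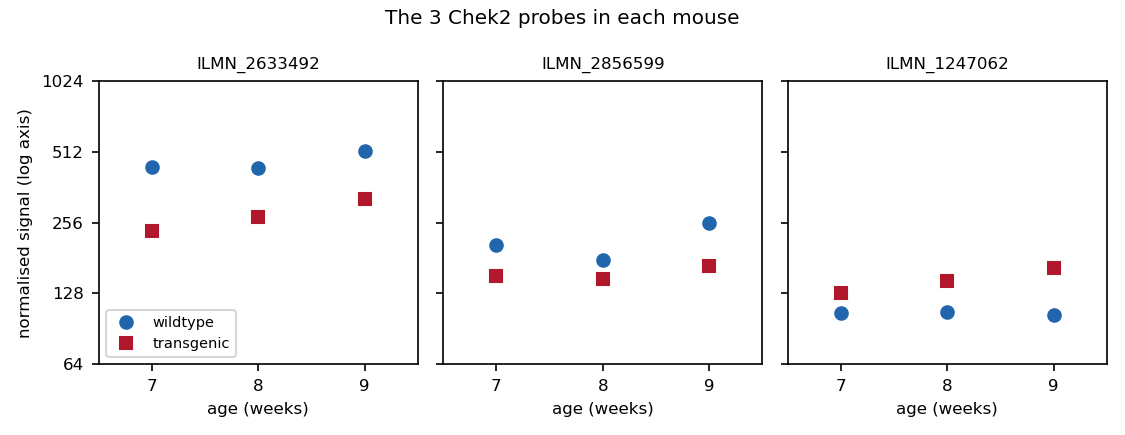
Normalised signal (log axis) of the 3 Chek2 probes in each of the 6 mice against age in weeks. Transgenic mice lie below wildtype mice for ILMN_2633492 and ILMN_2856599 and above them for ILMN_1247062.

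Mismatch repair held 2 higher and 1 lower member of 4 (median 0.23), where 10.4% of all genes were higher and 12.5% lower. Msh6, which recognises single mismatches, measured 1174, 1253 and 1197 in wildtype and 2053, 2472 and 2427 in transgenic mice (0.94, SE 0.10, 1.91-fold, adjusted p = 9.29e-04). Its second probe gave 0.92 (SE 0.11), so the values of both probes were close. Msh3, which recognises larger loops, measured 113, 123 and 103 against 135, 155 and 142 (0.35, SE 0.10, adjusted p = 0.0440), and its second probe, near the floor in both genotypes, did not pass (0.27, adjusted p = 0.0563). Mlh3, with a known role in meiotic crossing over, was lower, at 364, 311 and 364 in wildtype and 264, 263 and 280 in transgenic mice (-0.36, SE 0.09, adjusted p = 0.0323). The genotypes were separate for all 3 genes, but the call of Mlh3 was lost without any one mouse other than the wildtype mouse of 8 weeks (adjusted p between 0.0565 and 0.119) and in repeat 1 (0.0653) or repeat 2 (0.120) alone. The call of Msh3 was lost without the wildtype mouse of 7 weeks (0.108) or 9 weeks (0.134) or the transgenic mouse of 8 weeks (0.161) or 9 weeks (0.0884), in repeat 2 alone (0.276) and without the dimmest 25% of probes (0.0525). Msh5, a meiotic relative near the floor in both genotypes, gave 0.12 (interval -0.07 to 0.31).

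Of the end joining genes, Xrcc6, the Ku70 subunit that caps broken ends, measured 1385, 1376 and 1094 in wildtype and 1955, 1941 and 2189 in transgenic mice (0.67, SE 0.12, 1.59-fold, adjusted p = 0.00775). Every transgenic value was above every wildtype value. Xrcc4, which supports the final ligation, measured 305, 254 and 273 against 228, 235 and 257 and did not pass (-0.21, interval -0.44 to 0.03).

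Nucleotide excision repair was the only group of 3 or more members with a median below 0 (-0.07), close to the -0.02 over all genes. Its share of higher members, 1 of 6 (16.7%), was also near the 10.4% of all genes. The higher member was Ercc8, which acts where transcription stalls at a lesion, at 174, 182 and 154 in wildtype and 224, 231 and 264 in transgenic mice (0.49, SE 0.10, adjusted p = 0.0155). Its call was lost without the wildtype mouse of 9 weeks (adjusted p = 0.0529) or the transgenic mouse of 8 weeks (0.0545). Ercc3, a helicase of TFIIH, gave -0.22 (interval -0.45 to 0.02). The nuclease subunits Ercc1 and Ercc4 gave -0.04 (interval -0.24 to 0.16) and -0.10 (interval -0.42 to 0.22), and the damage recognition partner Rad23b gave 0.21 (interval -0.03 to 0.46). Ercc5, the nuclease that cuts the other side, measured 759, 661 and 649 in wildtype and 696, 514 and 459 in transgenic mice (-0.33, interval -0.70 to 0.04, adjusted p = 0.188), and passed without the transgenic mouse of 7 weeks (-0.50, adjusted p = 0.0237).

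In single-strand break repair, Xrcc1, the scaffold of the ligation complex, measured 328, 312 and 326 in wildtype and 429, 581 and 686 in transgenic mice (0.79, SE 0.16, adjusted p = 0.0146). Parp1, the main sensor of these breaks, measured 1106, 1237 and 1030 against 1488, 1529 and 1478 (0.42, SE 0.09, adjusted p = 0.0185). Both were separate between the genotypes. Xrcc1 did not pass without the transgenic mouse of 8 weeks (adjusted p = 0.0668), nor Parp1 without that mouse (0.0799) or the wildtype mouse of 7 weeks (0.0614) or 9 weeks (0.0619), with arrays scaled to a common median (0.0613) or in repeat 1 alone (0.0532).

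Parp2, the relative of Parp1, had the widest spread among wildtype mice of the 45 members. It measured 3596, 1561 and 2033 in wildtype and 2502, 2180 and 1991 in transgenic mice, a difference of -0.02 with an interval of -0.68 to 0.63. The wildtype values alone had an SD of 0.62 on the log2 scale, the next being Rad18 at 0.23, and reached above and below all transgenic values. The 2 arrays of each mouse differed by -0.15 to 0.36, second minus first. A second probe gave 1101, 510 and 655 in wildtype and 738, 879 and 734 in transgenic mice, again with the wildtype mouse of 7 weeks highest. Without that mouse the difference was 0.31 (adjusted p = 0.237).

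Rad18, the ubiquitin ligase that marks PCNA for lesion bypass, measured 98.0, 124 and 91.5 in wildtype and 141, 132 and 172 in transgenic mice (0.51, SE 0.15, adjusted p = 0.0482). The genotypes came close at 8 weeks, and the call was lost without any one mouse other than the wildtype mouse of 8 weeks (adjusted p between 0.0698 and 0.145), with repeat 2 alone (0.146) and with age as a block (0.0862). Ercc6l carries an excision repair symbol but encodes a helicase of mitotic chromosomes. It measured 105, 92.9 and 89.7 in wildtype and 138, 186 and 214 in transgenic mice (0.88, SE 0.16, 1.85-fold, adjusted p = 0.00909). Ercc6l2 gave -0.14 (interval -0.42 to 0.15).

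Grouped by process, the 27 checkpoint, recombination and Fanconi members included 14 that were higher (51.9%, median 0.46), where 10.4% of all genes were. Recombination gave 9 of its 13 members to these 14, checkpoint signalling 3 of 9 and the Fanconi pathway 2 of 5. The 16 members of end joining, mismatch, excision, single-strand and bypass repair included 7 (43.8%, median 0.17). By count, checkpoint and Fanconi members were thus not more often higher than those 16, though their medians (0.28 and 0.33) were above 0.17. The difference between the 27 and the 16 members was not tested. A further 95 measured genes of the same processes came from lists that the symbol rule does not cover. They included 37 higher (38.9%, against 10.4% of all genes) and 2 lower (where 12.5% of all genes were), with a median of 0.19. Of 18 other checkpoint and break-response genes 10 were higher, led by Clspn (2.64, adjusted p = 3.34e-04), which helps ATR to activate Chek1, and the fork protection factor Tipin (1.76). Of 17 other recombination and Fanconi genes 8 were higher, led by Rpa2 (1.50), of the single-strand binding complex, and Usp1 (1.37), which deubiquitinates Fancd2, and Sem1, a small partner of Brca2 and the proteasome, was lower (-0.38). Of 12 other mismatch repair genes 10 were higher, led by the DNA ligase Lig1 (2.42) and the clamp loader subunit Rfc4 (1.60). The 10 also serve as replication proteins, except Pms2 (0.57).

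Shares of higher genes in the other end joining, nucleotide excision and bypass lists (12.5%, 9.09% and 8.33%) were close to the 10.4% of all genes. Of all genes, 12.5% were lower. Of 8 other end joining genes 1 was higher (Polq, 0.78), a polymerase of microhomology joining. Of 11 other nucleotide excision repair genes 1 was higher (Ddb2, 0.82), a sensor of ultraviolet damage. Of 12 bypass and direct reversal genes 1 was higher (Polh, 1.40) and 1 lower, the methyltransferase Mgmt (-0.44, adjusted p = 0.00844). Base excision repair had 6 of 17 higher (35.3%), led by the flap nuclease Fen1 (2.27) and the uracil glycosylase Ung (1.79), both of which also work at replication forks.

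**Figure D4:**
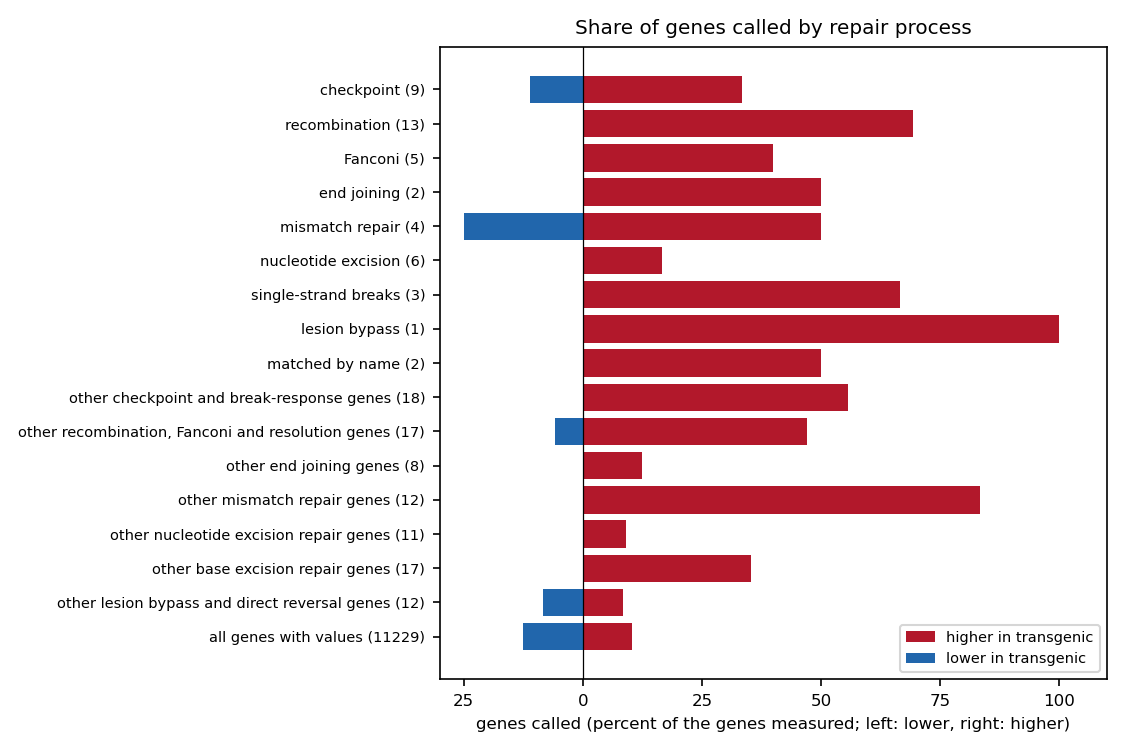
Share of genes called higher (right) or lower (left) in transgenic tubes, in percent, for each role of the 45 members, for the other repair genes and for all genes with values, with the number of genes in parentheses. Recombination stands at 69.2% higher and all genes at 10.4%.

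The members' differences were also set out by age. With 1 mouse of each genotype per age, a difference at one age has no test of its own, and age cannot be told apart from the mouse. The median difference over the 45 members was 0.21 at 7 weeks, 0.36 at 8 weeks and 0.44 at 9 weeks. Among the 22 higher members, the transgenic mouse of 7 weeks was the lowest of the transgenic mice for 19 (86.4%), against 63.0% of all 1171 genes higher in transgenic tubes. The highest was the mouse of 8 weeks for 11 and the mouse of 9 weeks for 11. The members' mean log2 signal was 8.22, 8.39 and 8.40 in the transgenic mice and 7.87, 7.85 and 7.83 in the wildtype mice, so that the spread lay in the transgenic mice. The cell division list was also lowest in the transgenic mouse of 7 weeks, at 9.91 against 10.37 and 10.46. In that mouse the ovary marker mean was 8.03, against 6.78 and 6.79 in the other transgenic mice, and the myeloid marker mean 9.78, against 9.51 and 9.27. The part of these in the members' values was not tested.

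No member passed the test of a genotype difference that changes with age (limma, age in weeks as a number, adjusted over all probes), and none of the 16664 probes did. On simulated data this fit recovered 41.5% of changes of 1 log2 per week, so most changes of that size, and smaller ones, could be missed. At an unadjusted p below 0.05, 4 members had a coefficient above 0 (8.89%, against 3.18% of all genes) and none below; in either direction 7.13% of all genes had such a p. They were Ercc6l, whose difference grew by 0.43 per week (adjusted p = 0.755), Rad51c (0.35 per week), Xrcc1 (0.34) and Rad1 (0.27). The coefficient was above 0 for 37 of 45 members (82.2%) and for 49.8% of all genes. A trend with age shared by both genotypes was passed by 0 members and 0 probes by limma. At an unadjusted p below 0.05 it held for 3 members, where 8.97% of all genes had such a p: Ercc5 (-0.21 per week, limma adjusted p = 0.589), Ercc6l2 (-0.15) and, the only one above 0 (3.80% of all genes), Chek2 (0.17).

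**Figure D5:**
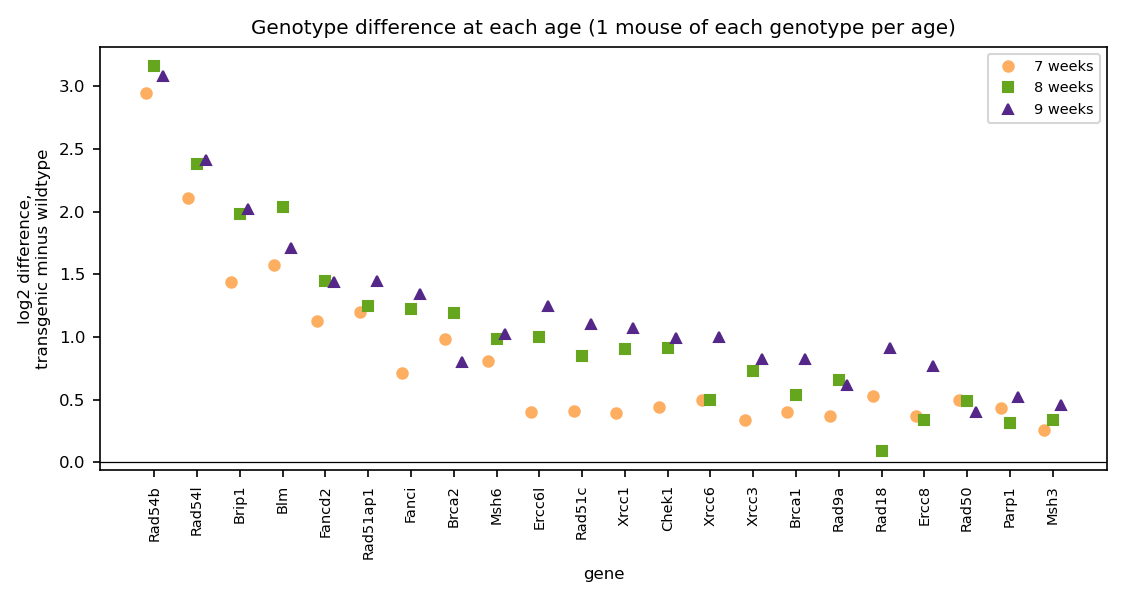
Log2 difference between the transgenic and the wildtype mouse of the same age for the 22 higher members, ordered by overall difference. Each symbol rests on 1 mouse of each genotype. Rad54b lies between 2.95 and 3.16 at the 3 ages, while Ercc6l runs from 0.40 at 7 weeks to 1.25 at 9 weeks.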

How the data were processed

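Fallopian tube RNA of 6 mice was measured on 12 arrays. The values deposited by the authors are a score: each array was standardised on its own, and GenomeStudio 1.6.0 was used per the submitters' processing notes. One scale and one centre were solved for each array, after which 100% of its values fell on signals of 1 decimal (tolerance 0.01 of the last digit). Median signals were 136.9 to 331.9, repeat 1 brighter than repeat 2 in every mouse. Of 25697 probes, 9033 were blank and 16664 were tested with no further filter; 15687 had 1 gene symbol and 977 none. A further 12 signal and 12 detection columns, of an unnormalised table whose names do not give the age, were not used.

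Signals were quantile-normalised, put on the log2 scale without background subtraction or offset, and averaged over the 2 arrays of a mouse (R 4.3.3, limma 3.58.1, Python 3.11.15). Genotype was tested with lmFit and eBayes over the 6 mouse means (4 residual degrees of freedom), two-sided, with Benjamini-Hochberg adjustment over all probes. The genotype by age fit had 2 and the age fit 3. A gene was read from its probe with the highest mean. In each role, the members with the largest called differences, those called lower, those with discordant probes and the lowest p that did not pass were named by rule. Of the other repair lists, the genes with the highest and lowest called differences were named. Arrays with the same repeat number were more alike than arrays with different numbers, but not in every pair, so the repeat number was left to an alternative fit. The tests were tried on simulated data. Members and lists were chosen with earlier results of these data known. The viral transgene was not analysed here, and the number of mice limits the precision.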

Additional observations from a re-analysis of the deposited data

How the results depend on the processing

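The 22 higher members became 21 with arrays scaled to a common median, 23 with normexp and an offset of 50, 17 of 36 measured without the dimmest 25% of probes, 22 on the deposited scores, 22 with the mean over a gene's probes, 21 and 18 with repeat 1 or repeat 2 alone, and 21 with age as a block. Leaving out 1 mouse gave 14 to 24. The 2 lower members became 1 with the mean over probes, 0 with repeat 1 alone, 1 with repeat 2 alone and 1 to 2 without 1 mouse. The replicate block on the repeat number, with the mouse as a random block, gave 22 and 2. Same-numbered arrays of different mice correlated by -0.247 to 0.515 in their deviations (median 0.111) and other-numbered ones by -0.697 to 0.126 (median -0.317), so same-numbered arrays were more alike by the median. Each mouse has 1 array of each number. The 2 arrays of a mouse correlated by -0.377 to 0.309 (median 0.0329), with a median below that of same-numbered arrays of different mice. No called member changed sign. The counts for the genotype by age difference and the age trend stayed at 0 under each alternative run for them.

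A total of 6 small differences that had not passed changed sign, without passing. Exo1 was -0.04 with median scaling, -0.01 with repeat 2 alone and -0.02 to 0.04 without 1 mouse (below 0 without the transgenic mouse of 9 weeks, at -0.01, or the wildtype mouse of 7 weeks). Parp2 was 0.05 with the mean over probes, 0.03 with repeat 1 alone and -0.29 to 0.31 without 1 mouse (above 0 without the transgenic mouse of 9 weeks, at 0.05, or the wildtype mouse of 7 weeks). Rad51d was -0.02 with the mean over probes and -0.01 (without the transgenic mouse of 7 weeks) to 0.10 without 1 mouse. Atrip was -0.08 to 0.03 without 1 mouse, highest without the wildtype mouse of 7 weeks, Ercc1 -0.08 to 0.01, highest without the wildtype mouse of 9 weeks, and Ercc4 0.01 with repeat 1 alone. The cause was not tested. Fits without a mouse have fewer samples, and signals near the array floor limit what Exo1, Fancg, Msh5, Rad51b and Rad9b can show.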

Other observations

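A list of 20 genes described as p53 targets was also measured. Whether p53 acts on each of these genes in the mouse was not tested. By limma 1 was higher in transgenic tubes, the damage sensor Ddb2 (0.82, adjusted p = 0.0195). The RNA-binding protein gene Zmat3 was the 1 that was lower (-0.68, adjusted p = 0.00814). Over all genes, 10.4% were higher and 12.5% lower. The median log2 difference was -0.05, against -0.02 over all genes. Cdkn1a, the inhibitor of cyclin-dependent kinases, gave 0.30 and Mdm2, the ubiquitin ligase of p53, -0.09, neither of which passed.

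Of 12 genes of the RB family and the E2F and DP factors, 6 were higher, where 10.4% of all genes were. Their median was 0.34, against -0.02 over all genes. The activator E2f1 (2.69, adjusted p = 3.12e-04) and E2f2 (1.76, adjusted p = 4.82e-04) led, followed by Rbl1 (1.28), Tfdp1 (1.15), Rb1 (0.56) and E2f4 (0.42). E2f5 (-0.00), E2f6 (0.17), E2f3 (0.23), E2f7 (0.26), Rbl2 (0.09) and Tfdp2 (0.07) did not pass.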
